A study of Mus musculus with 4 samples.

Results

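Described here is the RNA of 29 genes for integrin chains, the selectin ligand PSGL-1 and other adhesion molecules in immune cells of the mouse brain after stroke. The genes were taken by symbol from the 31053 genes of the deposited tables, and all 29 were found and had at least 1 UMI (unique molecular identifier, a tag that marks a single captured RNA molecule). They are 12 integrin alpha chains (Itga1, Itga2, Itga4, Itga5, Itga6, Itga9, Itgad, Itgae, Itgal, Itgam, Itgav, Itgax), 6 beta chains (Itgb1, Itgb2, Itgb3, Itgb5, Itgb7, Itgb8) and 11 other molecules (Icam1, Icam2, Vcam1, Selplg, Cd44, Pecam1, F11r, Cd47, Cd9, Cd81, Alcam). The mice, of the C57/BL6 strain, underwent tMCAO, the transient occlusion of the middle cerebral artery, which models stroke with reperfusion. Leukocytes with high surface CD45 were sorted from the ischemic hemisphere 5 or 14 days later and profiled by droplet single-cell RNA sequencing (10x Genomics, 3' version 2 reagents). Each day has 2 libraries, numbered as replicates 1 and 2, and no sham or naive group was analysed here. The labels give no genotype other than the strain, no treatment other than the occlusion, and no age, sex or number of mice behind a library. Each p-value between days thus measures the spread between libraries, which may be technical. Tests between classes take the library as a block, and their p-values measure how the class difference varies from library to library.

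Integrins are paired receptors made of 1 alpha and 1 beta chain, and a leukocyte can place on its surface only those pairs for which it makes both chains. The beta 2 partners Itgal, Itgam, Itgax and Itgad form the leukocyte integrins LFA-1, Mac-1, CD11c-CD18 and CD11d-CD18, which bind ICAMs and complement fragments. Itga4 with Itgb1 or Itgb7 binds VCAM-1, fibronectin or the gut addressin, and its blockade keeps lymphocytes out of the inflamed brain. Itgae with Itgb7 binds E-cadherin, and Itgav with Itgb5 or Itgb8 binds matrix proteins and latent TGF-beta. Selplg encodes PSGL-1, the selectin ligand on which leukocytes roll, Cd44 the hyaluronan receptor, Cd47 the ligand of SIRP-alpha, and Cd9 and Cd81 tetraspanins that associate with integrins in the membrane.

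Cells were assigned to classes by per-cell UMI counts of marker genes, with none of the adhesion genes listed above among them. Some genes of the list of other adhesion genes described further below, such as Thbs1 and Mmp9, were gate genes. Results for those genes are thus not independent of the gates. Of 10925 barcodes 10841 passed the limits on detected genes and mitochondrial RNA, 8267 fell in 1 class, 1183 carried markers of classes that exclude each other and were left out, and 1391 met no gate. At least 20 cells in every library were found in 10 classes: microglia, monocytes or macrophages, neutrophils, the conventional dendritic cells cDC1 and cDC2, migratory and plasmacytoid dendritic cells, NK cells, T cells and B cells. Gamma delta T cells reached that number on day 14 and border-associated macrophages on day 5. Values are in CPM, the UMIs of a gene scaled to 1e6 UMIs summed over a class in a library, and are listed as replicate 1 and 2 of each day. A UMI is counted at the 3' end of a transcript, so no scaling by gene length applies. Libraries held 9288054 to 13610119 UMIs in all, any pair of libraries shared 5 to 15 barcodes, and markers of endothelial cells, astrocytes, oligodendrocytes, platelets and red cells summed to at most 33.3 CPM a list over all cells of a library. In plasmacytoid dendritic cells the endothelial list summed to 108 to 145 CPM, of which Cdh5 gave 71.7 to 143 CPM, with Cldn5 and Slco1a4 at 0. The share of microglia among cells that passed the limits was 24.1% and 32.5% at day 5, then 5.58% and 2.69% at day 14.

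RefSeq promoter sequences (table build GRCm38.p6) were found for 19 of the 29 genes. The 250 bases before the start site of 4 genes are shown here, 5′ to 3′ on the strand of the gene, because these 4 chains stand for the main expression patterns described next. Itgam (chr7:128062390-128062639, plus strand) was high in phagocytes, Itgb5 (chr16:33829415-33829664, plus strand) in microglia, Itga4 (chr2:79255176-79255425, plus strand) in migratory dendritic cells, and Itgb7 (chr15:102231936-102232185, minus strand) in cDC2, T cells and cDC1. Capitals mark GAGGAA, a core bound by ETS factors such as PU.1, and TGTGGT, a core bound by RUNX factors, on either strand.
Itgam: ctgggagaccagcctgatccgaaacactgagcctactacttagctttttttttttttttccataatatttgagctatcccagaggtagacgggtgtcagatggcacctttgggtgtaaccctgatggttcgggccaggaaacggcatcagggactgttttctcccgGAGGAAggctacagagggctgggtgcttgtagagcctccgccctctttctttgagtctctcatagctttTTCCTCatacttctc
Itgb5: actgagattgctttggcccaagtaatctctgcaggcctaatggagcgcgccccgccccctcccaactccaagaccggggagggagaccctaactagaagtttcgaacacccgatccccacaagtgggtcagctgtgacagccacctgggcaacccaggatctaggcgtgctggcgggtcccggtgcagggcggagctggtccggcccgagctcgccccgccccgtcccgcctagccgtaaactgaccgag
Itga4: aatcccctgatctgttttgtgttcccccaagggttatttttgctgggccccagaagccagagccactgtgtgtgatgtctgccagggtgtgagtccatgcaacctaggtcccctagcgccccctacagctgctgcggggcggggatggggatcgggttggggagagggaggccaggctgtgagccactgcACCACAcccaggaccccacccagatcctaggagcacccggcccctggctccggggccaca
Itgb7: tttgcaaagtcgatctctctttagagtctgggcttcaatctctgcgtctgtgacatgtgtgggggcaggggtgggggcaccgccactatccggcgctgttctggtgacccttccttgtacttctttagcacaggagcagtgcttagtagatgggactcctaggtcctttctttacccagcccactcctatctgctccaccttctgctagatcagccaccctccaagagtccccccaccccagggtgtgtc
Itgam holds GAGGAA at 2 places and Itga4 holds TGTGGT at 1, while neither motif lies in these windows of Itgb5 and Itgb7. GAGGAA was found in 23.3% of all 32851 promoters at this length and in 7 of the 19 adhesion genes with a promoter, and TGTGGT in 14.0% and in 1 of 19. An adhesion gene was counted if any of its promoters held the motif, so the shares per promoter and per gene are not in like units. These are matches of letters, not measured binding.

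The beta 2 chain Itgb2 was abundant in 8 of the 10 classes, and its alpha partners divided the classes. Itgb2 lay at 293 to 339 CPM in microglia, 256 to 358 in monocytes or macrophages and 163 to 528 in NK cells, and was lowest in B cells (11.1 to 75.4 CPM) and migratory dendritic cells (38.6 to 86.6 CPM). Itgam, the Mac-1 chain, was 298 and 334 CPM at day 5 and then 244 and 287 CPM at day 14 in microglia. It was 154 and 244 CPM at day 5, then 193 and 252 at day 14 in neutrophils and 151 and 134 CPM at day 5, then 158 and 140.5 at day 14 in monocytes or macrophages. The ranges of microglia and neutrophils overlapped, and monocytes or macrophages lay above every dendritic class. Itgal, the LFA-1 chain, followed another order, with 156 to 212 CPM in NK cells, 106 to 173 in T cells and 69.5 to 150.4 in neutrophils, each overlapping the next. Microglia had 3.11 to 7.76 CPM of Itgal and migratory dendritic cells 0 to 9.65. Itgax, the CD11c chain, was highest in cDC2 (254 and 240.2 CPM at day 5, then 86.0 and 106 at day 14), followed by cDC1 (68.0 to 107 CPM) and NK cells (73.7 to 104 CPM), whose ranges overlapped. Itgad did not exceed 8.40 CPM in any class. The 4 alpha genes lie on 1 chromosome in the GENCODE M21 annotation of GRCm38: Itgal at chr7:127296260-127335138, and Itgam (chr7:128062640-128118491), Itgax (chr7:128129547-128150657) and Itgad (chr7:128154376-128223816) side by side, so neighbouring genes had different leading classes. Itgb2 lies at chr10:77530252-77565708.

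Among the 10 classes Itga4 was highest in migratory dendritic cells, Itgb1 in NK cells and Itgb7 in cDC2. B cells were last of the 10 for Itgb1 (22.2 to 43.9 CPM). Gamma delta T cells of day 14, which are not among the 10, had more Itgb7 than cDC2, as given further below. In migratory dendritic cells, which carry Ccr7 and leave tissue for lymph nodes, Itga4 was 312 and 298 CPM at day 5 and then 309 and 225 CPM at day 14, and no other class reached its range. NK cells (65.9 to 205 CPM) and T cells (66.5 to 144 CPM) came next and overlapped, while microglia had 3.88 to 6.62 CPM. Itgb1 was highest in NK cells (334 to 410.1 CPM), migratory dendritic cells (257 to 346 CPM) and T cells (240.4 to 439 CPM), with overlapping ranges, and these lay above the other 7 classes. Itgb7 (chr15:102215995-102231944) reached 346 to 381 CPM in cDC2, 317 to 346 in T cells and 274 to 381 in cDC1, again overlapping, and 8.98 to 20.8 CPM in microglia. Itgae, the E-cadherin binding chain, was 161 and 232 CPM at day 5 and then 81.3 and 169 CPM at day 14 in cDC1. Among the 10 classes cDC2 came next at 5.06 to 68.5 CPM, below the cDC1 range.

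The remaining alpha chains were lower. Itga6, a laminin receptor chain, was 73.7 and 85.5 CPM at day 5 and then 81.5 and 76.3 CPM at day 14 in microglia, above every other of the 10 classes. Itgav was highest in monocytes or macrophages (38.6 to 56.2 CPM) and lay at 26.9 to 29.1 CPM in microglia. Itga5, the fibronectin receptor chain, was also highest in monocytes or macrophages (22.7 to 30.2 CPM), overlapping cDC2 and microglia. The collagen receptor chains Itga1 and Itga2 were highest in NK cells, at 4.51 to 41.5 CPM and 13.4 to 45.1 CPM. Itga9 stayed at or under 7.76 CPM in microglia and lower or overlapping levels elsewhere. Among the beta chains, Itgb3 was highest of the 10 classes in NK cells (6.42 to 17.8 CPM) and was 27.4 and 25.5 CPM in gamma delta T cells of day 14. Itgb8 was 34.6 and 9.94 CPM at day 5 and then 3.22 and 4.02 CPM at day 14 in migratory dendritic cells, from 4, 1, 1 and 2 UMIs. Itgb8 had 0 UMIs in 7 of the other classes, at most 1.94 CPM in microglia and at most 2.94 CPM in T cells.

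Itgb5 (chr16:33829665-33949338) joins Itgav to form a vitronectin receptor. It was 1077 and 1109.7 CPM at day 5 and then 933 and 1006 CPM at day 14 in microglia and 453 and 434 CPM at day 5, then 195 and 241 at day 14 in monocytes or macrophages. These ranges did not overlap. Neutrophils at 86.4 to 137 CPM and cDC2 at 40.5 to 178 CPM came next and overlapped, with cDC2 the higher at day 5 and the lower at day 14. Border-associated macrophages of the day 5 libraries had 354 and 385 CPM, below monocytes or macrophages of the same day.

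Of the other molecules, Cd81 and Cd9 set microglia apart most. Cd81 was 4036 and 4317 CPM at day 5 and then 3174 and 3911 CPM at day 14 in microglia. Of the 10 classes B cells came next at 236 to 445 CPM, and border-associated macrophages had 694 and 612 CPM. Cd9 was 2284 to 2739 CPM in microglia, 806 to 1493 in neutrophils and 535 to 678 in monocytes or macrophages, with no overlap between them. Selplg was 1127 to 1622 CPM in microglia, 926 to 1133 in plasmacytoid dendritic cells and 860.3 to 1027 in NK cells, each overlapping the next, and lowest in B cells (33.4 to 125 CPM). F11r, the junctional molecule JAM-A, was highest in microglia (202 to 345 CPM) and overlapped cDC2 (82.6 to 222 CPM). Cd47 was highest in plasmacytoid dendritic cells (859 to 1058 CPM) and lowest in microglia (117 to 198 CPM). Cd44 was 355 and 242 CPM at day 5 and then 659 and 425 CPM at day 14 in neutrophils and 155 to 189 CPM in monocytes or macrophages, against 12.9 to 22.5 CPM in microglia.

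The endothelial-type ligands were present on leukocytes at different levels. Icam1, the main LFA-1 and Mac-1 ligand, was 355 and 268 CPM at day 5 and then 289 and 273 CPM at day 14 in migratory dendritic cells and 201 to 223 CPM in microglia, with no overlap between the 2 classes or with the third, NK cells (74.0 to 135 CPM). Icam2 was highest in B cells (35.9 to 100.1 CPM) and overlapped NK cells and T cells. Pecam1, known as CD31, was 58.8 to 87.4 CPM in plasmacytoid dendritic cells, 38.6 to 100.1 in B cells and 51.3 to 76.7 in NK cells, all overlapping. Alcam, the ligand of CD6, was highest in cDC2 (91.1 to 112 CPM), overlapping neutrophils. Vcam1 stayed at or under 48.2 CPM in the 10 classes and was 25.9 and 101 CPM in border-associated macrophages. The heat map shows all 29 genes by class.

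**Figure D1:**
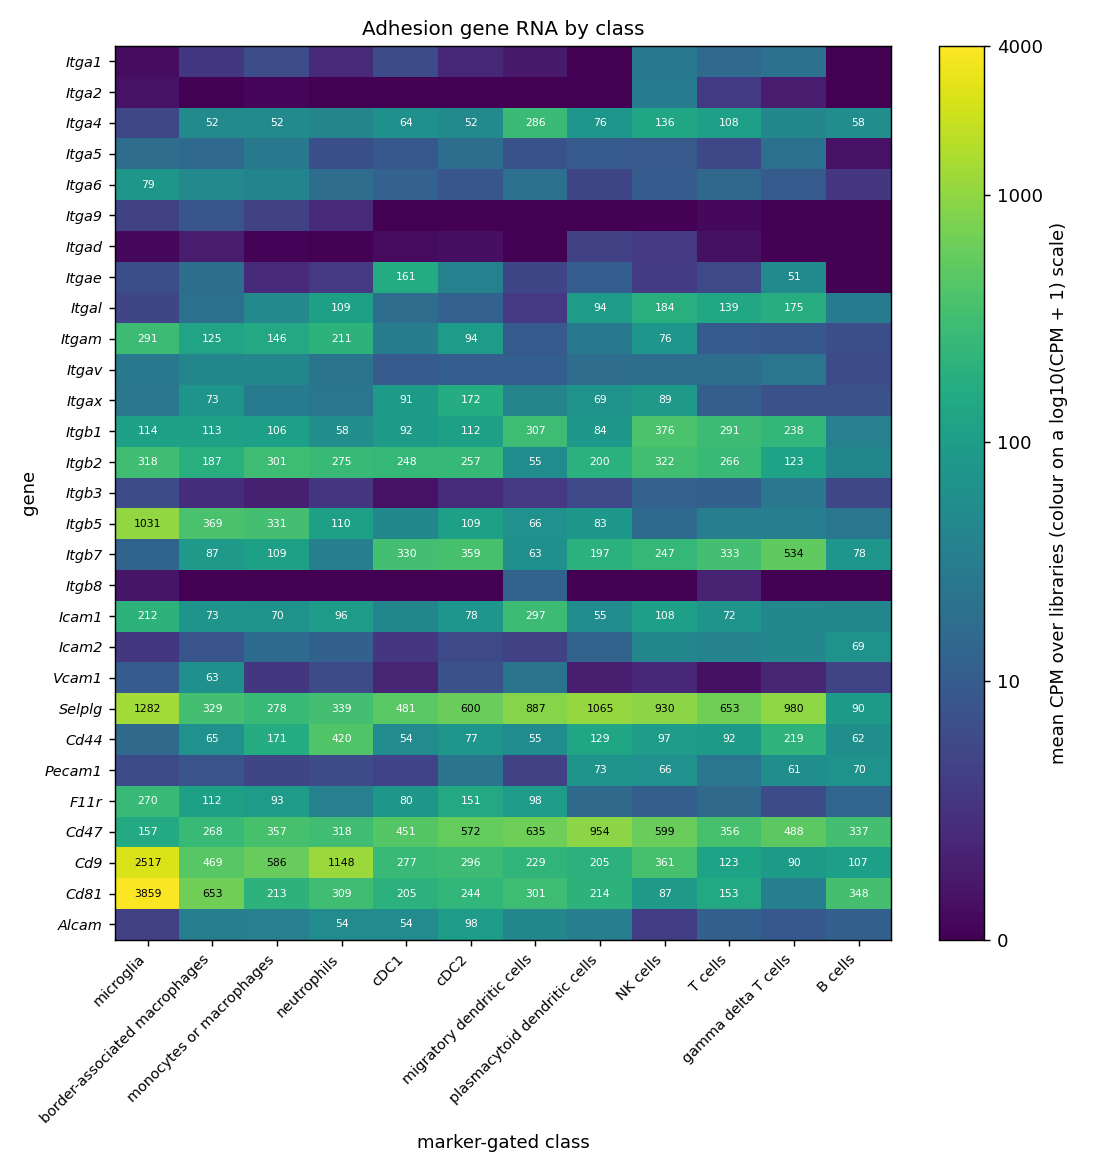
Mean CPM over libraries of the 29 adhesion genes (rows) in 12 marker-gated classes (columns), coloured on a log10(CPM + 1) scale, with means of 50 CPM or more printed. Border-associated macrophages are shown from the 2 day 5 libraries and gamma delta T cells from the 2 day 14 libraries, the other classes from all 4. Cd81, Cd9, Selplg and Itgb5 are the brightest cells of the microglia column, and Itgae stands out in cDC1.

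To see which integrins each class could assemble, a chain was counted as present at 50 CPM or more in every library, and 16 known alpha-beta pairs were read in the 10 classes. In all, 98 of 290 gene and class combinations and 20 of 160 pair and class combinations met this limit. Itgam with Itgb2 was present in microglia, monocytes or macrophages, neutrophils and cDC2, and Itgal with Itgb2 in neutrophils, plasmacytoid dendritic cells, NK cells and T cells. Of the 10 classes, neutrophils alone met it for both LFA-1 and Mac-1 in every library. NK cells missed it for Mac-1 through Itgam (lowest library 14.5, mean 76.4 CPM), which was above the limit in both day 5 libraries. Monocytes or macrophages missed it for LFA-1 through Itgal (lowest library 39.8, mean 48.5 CPM). Itgax with Itgb2 was present in cDC1, cDC2 and NK cells. Itga4 with Itgb1 was present in migratory and plasmacytoid dendritic cells, NK cells and T cells, and with Itgb7 in the last 3 of these. Itgae with Itgb7 met the limit in cDC1 and Itga6 with Itgb1 in microglia. B cells met it for no pair: their Itga4 was 44.5 and 48.0 CPM at day 5 and then 79.8 and 57.8 CPM at day 14 and their Itgb7 33.4 and 61.7 CPM at day 5, then 106 and 111 at day 14. No pair with Itgav met it, because Itgav was under 50 CPM in at least 1 library of every class. For Itgav with Itgb5 the lower chain was Itgav, at a mean of 46.0 CPM in monocytes or macrophages and 28.0 CPM in microglia.

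UMIs of both chains of a pair were seldom found in the same cell. With each cell thinned to 1000 UMIs, 3.23% to 7.22% of microglia per library had a UMI of both Itgam and Itgb2, and 2.19% to 13.7% of NK cells had both Itgal and Itgb2. For Itgae with Itgb7 in cDC1 the share was 0% to 11.9%, and for Itga4 with Itgb1 in migratory dendritic cells 3.33% to 7.25%. These shares rest on few UMIs a cell, and the data do not measure surface protein. The number of pairs moved with the limit, from 37 at 20 CPM to 6 at 100 CPM.

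**Figure D2:**
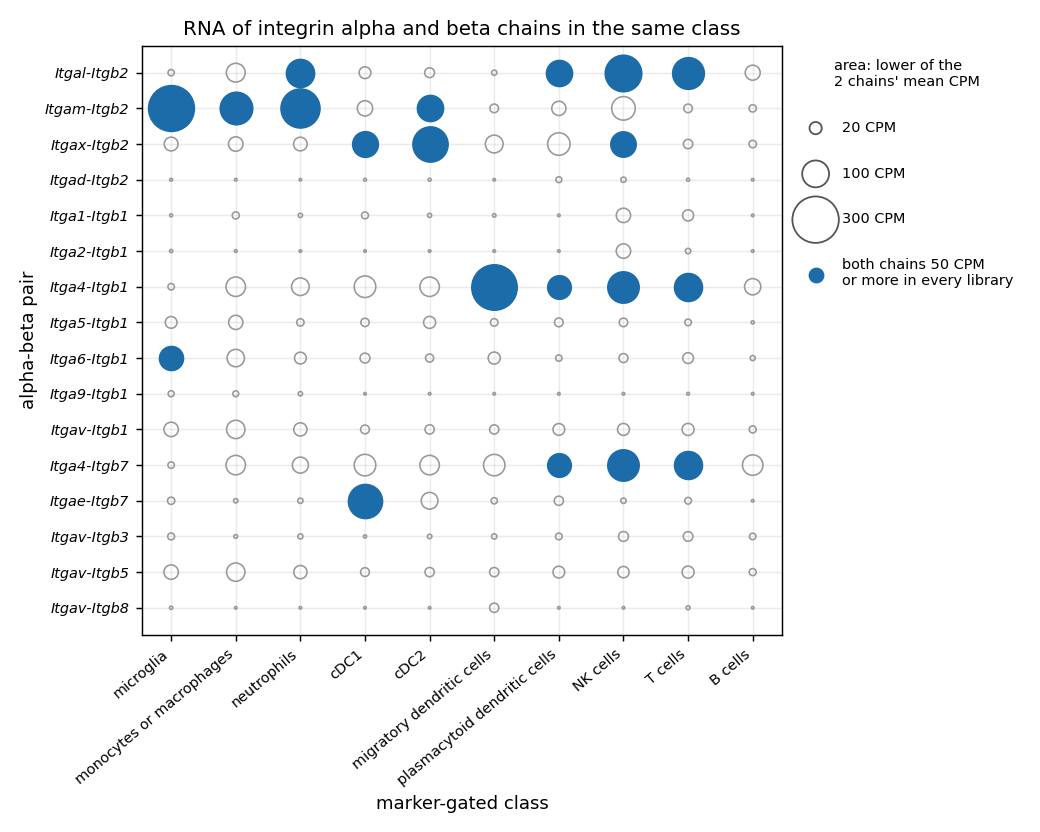
The 16 alpha-beta pairs (rows) in the 10 classes (columns). Circle area is the lower of the mean CPM values of the 2 chains, and filled circles are the 20 combinations with both chains at 50 CPM or more in every library. Filled circles of Itgal-Itgb2 and Itga4-Itgb7 fall in lymphocyte and plasmacytoid dendritic columns, plus neutrophils for the first.

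T cells were divided further on day 14. Gamma delta T cells (268 and 129 cells) had 596 and 473 CPM of Itgb7 and 39.4 and 62.3 CPM of Itgae, beside 183 and 239 CPM and 10.3 and 8.85 CPM in CD8 T cells (161 and 101 cells). Their Cd44 was 234 and 204 CPM, and their Itga4 54.8 and 36.8 CPM lay below the 139.8 and 91.4 CPM of CD8 T cells. T cells with a UMI of Foxp3, the factor of regulatory T cells, numbered 41 and 24. They had 598 and 615 CPM of Itgb7 and 82.9 and 120.0 CPM of Itgb1. CD4 T cells without Foxp3 (70 and 29 cells) had 364 and 263 CPM and 358 and 362 CPM. Itgal was 53.3 and 22.5 CPM in the Foxp3-positive cells and 149 and 209 CPM in the others. In these 3 genes the 2 sets did not overlap, and their Poisson intervals for counting error were apart in each library for Itgb7 and Itgb1. These are descriptions of 2 libraries with no test between the sets, and on day 5 the CD4 and Foxp3-positive sets held 2 to 3 cells a library.

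Microglial RNA outside microglia was measured because Itgb5, Cd81, Cd9 and F11r were all highest in microglia. The level of the 5 microglial gate genes (P2ry12, Tmem119, Gpr34, Sparc, Olfml3) in a class, as a percentage of their level in microglia of the same library, gives the share at which an adhesion gene would appear if it came along with them. In cDC2 this was 6.52%, 7.19%, 2.19% and 1.44%, in cDC1 6.59%, 4.72%, 1.23% and 0.957% and in monocytes or macrophages 8.04%, 8.21%, 4.22% and 3.82% (day 5 replicates first). It was lower on day 14 than on day 5 in these 3 classes.

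Itgb5 in T cells was 38.5 and 53.2 CPM at day 5 and then 19.9 and 23.5 CPM at day 14, 0.953 to 1.63 times the level at that ratio. B cells (0.357 to 3.09 times) and NK cells (0 to 2.23 times) scattered on both sides of it, so Itgb5 of lymphocytes and microglial RNA cannot be told apart at this depth. In cDC1 the values were 1.07 to 2.41 times and in cDC2 1.98 to 3.06 times that level. Monocytes or macrophages were at 4.76 to 6.28 times, which left 366, 343, 155 and 203 CPM beyond it. Cd81 gave another picture, at 0.829 to 0.938 times the microglial ratio in monocytes or macrophages, 1.08 to 1.54 in NK cells and 1.17 to 1.55 in cDC2, but 5.24 to 6.29 in B cells. Cd9 was 7.81 to 10.1 times the ratio in NK cells, 6.88 to 12.9 in neutrophils and 2.57 to 4.05 in cDC2, and F11r 8.17 to 32.9 in cDC2. The gates remove cells with many microglial UMIs. Lymphocytes with over 2% of UMIs from the 7 phagocyte genes were also left out, so these levels are those of the cells kept.

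**Figure D3:**
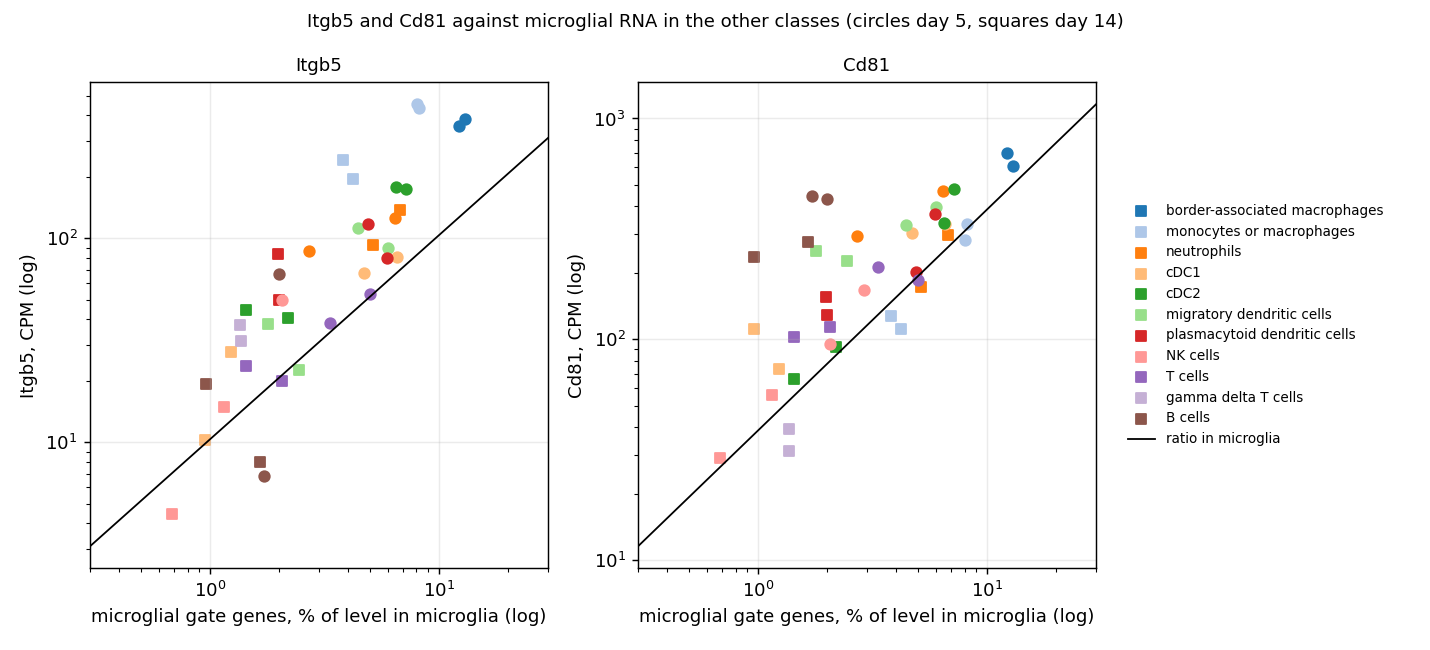
CPM of Itgb5 (left) and Cd81 (right) in classes other than microglia against the level of the 5 microglial gate genes as a percentage of that in microglia, both on log axes, with a point for each class and library above 0 CPM. The line is the ratio found in microglia on average. T cells lie on or near the line for Itgb5 and monocytes or macrophages well above it, while for Cd81 monocytes or macrophages lie just under the line and B cells above it.

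Related classes were compared within libraries with edgeR's quasi-likelihood test, the library as a block and Benjamini-Hochberg adjustment over all genes tested. Microglia differed from monocytes or macrophages in 21 of 26 adhesion genes tested, 11 higher and 10 lower in microglia, beside 36.9% of the 9484 genes tested. On the log2 scale (± SE), Cd81 was higher in microglia by 4.37 ± 0.19 (adjusted p = 3.37e-12), Itgb3 by 2.67 ± 0.52 (adjusted p = 4.92e-04) from low levels, Selplg by 2.26 ± 0.12 (adjusted p = 2.61e-11) and Cd9 by 2.17 ± 0.11 (adjusted p = 3.58e-11). Lower in microglia were Itgal at -3.55 ± 0.25 (adjusted p = 1.80e-09), Cd44 at -3.46 ± 0.16 (adjusted p = 9.07e-12), Itga1 at -2.99 ± 0.68 (adjusted p = 0.00185), Itga4 at -2.90 ± 0.24 (adjusted p = 1.70e-08), Itgb7 at -2.77 ± 0.17 (adjusted p = 2.80e-10) and Alcam at -2.65 ± 0.26 (adjusted p = 1.91e-07). These were the 10 largest differences. Itgb5 was higher in microglia by 1.77 ± 0.15 (adjusted p = 3.18e-08) and Itgam by 1.08 ± 0.13 (adjusted p = 1.79e-06). Cd47 was lower in microglia, at -1.07 ± 0.13 (adjusted p = 1.51e-06). Itgb1, Itgb2, Itgax, Pecam1 and Itga9 did not pass the threshold, with 0.14 ± 0.12 for Itgb2 and 0.20 ± 0.13 for Itgb1.

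cDC1, the dendritic cells that cross-present antigen, differed from cDC2 in 11 of 21 adhesion genes tested, beside 24.7% of the 7132 genes tested. Itgae was higher in cDC1 by 2.18 ± 0.21 (adjusted p = 7.63e-09), the single gene in that direction. The 10 lower genes were led by Pecam1 at -2.14 ± 0.42 (adjusted p = 3.21e-04), Itgam at -1.89 ± 0.27 (adjusted p = 4.25e-06) and Itgb5 at -1.26 ± 0.21 (adjusted p = 3.86e-05). They went on with F11r (-0.94), Alcam (-0.87), Icam1 (-0.81), Itgax (-0.75), Cd44 (-0.60) and Cd47 (-0.30). Itgb7 (-0.10 ± 0.11) and Itgb2 (-0.01 ± 0.11), the beta chains shared by both, did not pass the threshold. Without day 14 replicate 2, 7 of 19 genes passed, and the adjusted p was 0.0577 for Alcam and 0.591 for Cd44, and without day 14 replicate 1 it was 0.0699 for Icam1. For Cd47 it was 0.242 without the same library, 0.0834 without day 14 replicate 2 and 0.0906 without day 5 replicate 1. With DESeq2 Cd44 (0.364), Cd47 (0.139) and Icam1 (0.0808) did not pass, nor with clustering did Alcam (0.132) and Cd44 (0.298).

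NK cells differed from T cells in 11 of 20 adhesion genes tested, 9 higher and 2 lower in NK cells, beside 14.8% of the 6033 genes tested. The beta 2 partners Itgax (3.28 ± 0.30, adjusted p = 2.02e-11) and Itgam (2.61 ± 0.45, adjusted p = 2.56e-05) were higher in NK cells, as were the collagen receptor chains Itga2 (1.97 ± 0.49, adjusted p = 0.00344) and Itga1 (1.21 ± 0.33, adjusted p = 0.00810). Cd9 (1.17), Pecam1 (1.02), Cd47 (0.66) and Itgb1 (0.54) were higher too. Cd81 (-1.15) and Itgb7 (-0.50) were lower. Itgal, Itga4 and Itgb2 did not pass the threshold (0.28 ± 0.13, -0.14 ± 0.17 and 0.02 ± 0.13). Without day 14 replicate 1, 6 of 15 genes passed, and the adjusted p was 0.240 for Itgb1 and 0.0806 for Pecam1, and without day 14 replicate 2 it was 0.0783 for Itgb7. Itga1 and Itga2 were too low to be tested without either day 14 library. With DESeq2 Itga1 (0.576), Itgb1 (0.301), Itgb7 (0.151) and Pecam1 (0.0950) did not pass.

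The second question was which adhesion genes differed between day 5 and day 14 within a class. Over the 10 classes 25 of 159 gene and class tests passed the threshold (edgeR quasi-likelihood test, adjusted p under 0.05), 4 higher and 21 lower on day 14, and all 25 were in 4 classes. That is 15.7% of the adhesion gene tests, beside 5.60% of the 48402 tests over all genes. The 25 became 14 with DESeq2 and 47 with mixed cells kept. Of the 21 that were lower, 15 were of genes whose highest level was in microglia. There were 8 such genes, and they also held many of the 159 tests. Cd81, Cd9 and Selplg were tested in 10 classes each, Itgb5 in 8, and Itgam and F11r in 6 each. Itga6 was tested in 3 and Itga9 in 1. Whether 15 of 21 exceeds their share of the tests was not tested. The summed microglial markers were also lower on day 14 in each of the 4 classes, as given beside each result. They were lower too in most of the 6 classes with no call: microglia, migratory and plasmacytoid dendritic cells, T cells and B cells. In T cells they summed to 962 and 998 CPM at day 5, then 387 and 363 at day 14. Only in neutrophils did the days overlap (1948 and 909 CPM at day 5, then 1572 and 1009 at day 14). The part of microglial RNA in the 25 changes was not tested.

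In cDC1, 5 of 16 adhesion genes tested were lower on day 14 and 0 higher, beside 4.64% of the 4242 genes tested. Cd81 was 331 and 303 CPM at day 5 and then 73.4 and 111 CPM at day 14, a change of -1.71 ± 0.21 (SE, adjusted p = 3.25e-06). F11r was 143 and 101 CPM at day 5, then 31.7 and 45.3 at day 14, a change of -1.58 ± 0.32 (adjusted p = 0.00204). Cd9 was 354 and 382 CPM at day 5, then 190.3 and 182 at day 14, a change of -0.97 ± 0.18 (adjusted p = 9.14e-04). In these 3 genes both day 5 libraries were above both day 14 libraries. Itgb5 was 80.6 and 67.4 CPM at day 5, then 27.8 and 10.3 at day 14, -2.13 ± 0.42 (adjusted p = 0.00181). Itgam was 58.2 and 48.7 CPM at day 5, then 11.9 and 8.24 at day 14, from 13, 13, 6 and 8 UMIs, -2.43 ± 0.48 (adjusted p = 0.00165). The days did not overlap in either gene. The nearest gene not past the threshold was Itgb2 at -0.51 ± 0.18 (adjusted p = 0.145), and Itgae was -0.58 ± 0.26. The 10 microglial markers summed to 1791 and 1400.1 CPM at day 5, then 440.2 and 373 at day 14 in cDC1, each of the 10 lower in both day 14 libraries. The 7 border-associated macrophage markers summed to 62.7 and 82.4 CPM at day 5, then 7.93 and 13.4 at day 14, with 3 lower, 0 higher and Lyve1 at 0. The part of either list in these changes was not tested. Without day 14 replicate 2 the adjusted p was 0.123 for Itgb5 (change -1.36) and 0.207 for Itgam, which was also lost without day 14 replicate 1 (0.200) and without day 5 replicate 1 (0.0934). With classes from clustering the change was smaller, at -0.52 for Cd81 (adjusted p = 0.310), -1.03 for F11r (0.136) and -0.61 for Cd9 (0.0880), where Itgam and Itgb5 were not tested. With DESeq2 it was 0.0714 for Itgam and 0.0927 for Itgb5, and with mixed cells kept 0.157 for Cd9.

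cDC2 held the most changed adhesion genes, with 2 higher and 7 lower of 21 tested, beside 8.3% of the 7277 genes tested. Itgax was 254 and 240.2 CPM at day 5 and then 86.0 and 106 CPM at day 14, a change of -1.31 ± 0.15 (SE, adjusted p = 1.94e-04), and Itgae was 68.5 and 52.3 CPM at day 5, then 5.06 and 25.7 at day 14, -1.74 ± 0.39 (adjusted p = 0.0158). Itgb2 was 313 and 305 CPM at day 5, then 192 and 217 at day 14, -0.55 ± 0.13 (adjusted p = 0.0204). Both chains of CD11c-CD18 were thus lower on day 14, with no overlap of the days. Itgb5 was 178 and 174 CPM at day 5, then 40.5 and 44.4 at day 14, -2.01 ± 0.17 (adjusted p = 2.25e-05). Cd81 was 338 and 481 CPM at day 5, then 92.7 and 66.1 at day 14, -2.37 ± 0.21 (adjusted p = 2.52e-05). Cd9 was 416 and 428 CPM at day 5, then 179 and 159.8 at day 14, -1.30 ± 0.13 (adjusted p = 5.38e-05). The tetraspanins and Itgb5 were each lower in both day 14 libraries, and so was F11r, at 222 and 202 CPM at day 5, then 82.6 and 95.7 at day 14 (-1.20 ± 0.15, adjusted p = 4.10e-04). Cd47 and Cd44 went the other way. Cd47 was 488 and 462 CPM at day 5, then 691 and 645 at day 14, 0.52 ± 0.11 (adjusted p = 0.00917), and Cd44 62.7 and 57.5 CPM at day 5, then 92.7 and 93.7 at day 14, 0.66 ± 0.18 (adjusted p = 0.0415). Both were higher in each day 14 library. The nearest gene not past the threshold was Itgam at -0.54 ± 0.19 (adjusted p = 0.117).

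Other genes of the cDC2 class moved with these. Epcam, an adhesion molecule of some dendritic cells, was 174 and 123 CPM at day 5 and then 8.43 and 14.8 CPM at day 14, and Ly6c2, a monocyte gene, 87.0 and 67.8 CPM at day 5, then 730.1 and 804 at day 14. The microglial markers summed to 2328 and 2598 CPM at day 5, then 909 and 725 at day 14, with 7 of 10 lower in both day 14 libraries, the border-associated macrophage markers to 294 and 524 CPM at day 5, then 179 and 106 at day 14 (7 of 7 lower), and the monocyte or macrophage markers to 1501 and 1557 CPM at day 5, then 3905 and 3992 at day 14 (6 of 11 higher, 2 lower). None of the microglial or monocyte markers was at 0, and the part of these lists in the changes was not tested. In cDC2 with no UMI of the microglial gate genes, Itgax changed by -1.34 (adjusted p = 7.15e-04), Cd81 by -1.77 (0.00138), Itgb5 by -1.45 (0.0163), Cd9 by -1.20 (0.00149) and F11r by -1.07 (0.0122). In those cells Cd44 (0.285), Cd47 (0.133), Itgae (0.0718) and Itgb2 (0.177) no longer passed, nor did these 4 with DESeq2 (0.520, 0.0779, 0.529 and 0.189). Cd44 was lost without any 1 library, with adjusted p from 0.0524 without day 14 replicate 1 to 0.233 without day 5 replicate 2, and also with classes from clustering (0.0510). Cd47 was lost without day 5 replicate 2 (0.127), and Itgb2 without day 14 replicate 1 (0.0585) or either day 5 library (0.129 for replicate 1 and 0.0735 for replicate 2). Without day 14 replicate 2 the change of Itgae was -3.53.

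In monocytes or macrophages, 2 of 23 adhesion genes tested were higher and 4 lower on day 14, beside 10.4% of the 8980 genes tested. Cd47 was 254 and 273 CPM at day 5 and then 445 and 456 CPM at day 14, a change of 0.87 ± 0.11 (SE, adjusted p = 6.05e-04). Itga4 was 34.5 and 42.1 CPM at day 5, then 77.0 and 54.1 at day 14, 0.83 ± 0.19 (adjusted p = 0.0195). Both were higher in each day 14 library. Itgb5 was 453 and 434 CPM at day 5, then 195 and 241 at day 14, -0.92 ± 0.14 (adjusted p = 0.00135). Cd81 was 281 and 333 CPM at day 5, then 111 and 128 at day 14, -1.25 ± 0.14 (adjusted p = 1.76e-04). Itga6 was 58.7 and 54.5 CPM at day 5, then 20.3 and 31.1 at day 14, -0.97 ± 0.20 (adjusted p = 0.0112), and Itgax 38.0 and 34.3 CPM at day 5, then 20.3 and 20.8 at day 14, -0.72 ± 0.19 (adjusted p = 0.0414). These 4 were lower in each day 14 library. Itgam, the Mac-1 chain, was 151 and 134 CPM at day 5, then 158 and 140.5 at day 14, with overlapping days. The nearest gene not past the threshold was Icam1 at 0.43 ± 0.15 (adjusted p = 0.103).

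Ly6c2, which is high in inflammatory monocytes, was 435 and 559.8 CPM at day 5 and then 3842 and 3361 CPM at day 14 in this class. The 11 monocyte or macrophage markers summed to 6868 and 7022 CPM at day 5, then 11736 and 10717 at day 14 (7 higher, 3 lower) and the border-associated macrophage markers to 439.7 and 465 CPM at day 5, then 299 and 327 at day 14 (1 higher and 3 lower of 7, Lyve1 at 0). The 10 microglial markers summed to 3150.0 and 3388 CPM at day 5, then 1429 and 1349 at day 14, each lower in both day 14 libraries. The part of these lists in the changes was not tested. In cells with no UMI of the microglial gate genes, Cd47 changed by 0.66 (adjusted p = 0.0360) and Itgax by -1.87 (0.0261), while Itgb5 (-0.67, 0.0620), Cd81 (-0.84, 0.132), Itga6 (-0.36, 0.806) and Itga4 (0.50, 0.407) did not pass. Itgax was lost without any 1 library, with adjusted p from 0.0625 without day 5 replicate 2 to 0.194 without day 5 replicate 1, and changed by -0.01 with classes from clustering (0.996). Itga4 was lost without day 5 replicate 1 (0.0809), with clustering (0.131) and with DESeq2 (0.0802), which also missed Itga6 (0.0520) and Itgax (0.442).

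In NK cells, 5 of 17 adhesion genes tested were lower on day 14 and 0 higher, beside 5.23% of the 5144 genes tested. Itgb2 was 528 and 411 CPM at day 5 and then 163 and 185 CPM at day 14, a change of -1.30 ± 0.19 (SE, adjusted p = 4.22e-04), and Itgam, which rises as mouse NK cells mature, was 139.9 and 116 CPM at day 5, then 35.5 and 14.5 at day 14, -2.28 ± 0.39 (adjusted p = 0.00149). Both chains of Mac-1 were lower in each day 14 library. Itga4 was 167 and 205 CPM at day 5, then 105 and 65.9 at day 14, -0.99 ± 0.27 (adjusted p = 0.0404). Cd9 was 478 and 526 CPM at day 5, then 259 and 182 at day 14, -1.05 ± 0.20 (adjusted p = 0.00321), and Cd81 94.8 and 167 CPM at day 5, then 56.3 and 29.1 at day 14, -1.46 ± 0.37 (adjusted p = 0.0248). The days did not overlap in any of the 3. Itgal (208 and 212 CPM at day 5, then 161 and 156 at day 14), Itgb1 and Itgb7 did not pass, with changes of -0.26 ± 0.21, 0.20 ± 0.19 and -0.19 ± 0.19. The nearest to the threshold was Itga1 at 1.71 ± 0.60 (adjusted p = 0.136), which had 4.51 and 25.7 CPM at day 5, then 41.5 and 39.1 at day 14.

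The NK cell marker list summed to 16985 and 16064 CPM at day 5, then 6268 and 6066 at day 14 (6 of 9 markers lower, 0 higher), with Gzma, a cytotoxic granule protease, at 11839.5 and 10288 CPM at day 5, then 2400.2 and 2513 at day 14. The gamma delta T or innate lymphoid list summed to 139.9 and 154 CPM at day 5, then 179 and 227 at day 14, with Il23r and Tcrg-V6 at 0. The neutrophil markers summed to 230.2 and 218 CPM at day 5, then 75.5 and 63.7 at day 14 and the microglial markers to 559.7 and 687 CPM at day 5, then 253 and 136 at day 14, and median UMIs per NK cell were 1478 and 1156 at day 5, then 2119 and 2946 at day 14. Platelet markers summed to 9.03 and 38.5 CPM at day 5, then 1.48 and 1.12 at day 14, with Gp9, Ppbp and Tubb1 at 0. The part of these in the changes was not tested. In NK cells with no UMI of the microglial gate genes the changes were -1.31 for Itgb2 (adjusted p = 6.24e-04), -2.40 for Itgam (7.66e-04) and -1.03 for Cd9 (0.00301). Itga4 and Cd81 did not pass there (0.0968 and 0.0728) or with DESeq2 (0.208 and 0.0721). Without day 14 replicate 2 Itga4 changed by -0.64 (adjusted p = 0.209) and Cd81 had 0.0787, and without day 5 replicate 2 they had 0.201 and 0.203. Itga4 also missed the threshold with mixed cells kept (0.327) and with clustering (0.0683).

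**Figure D4:**
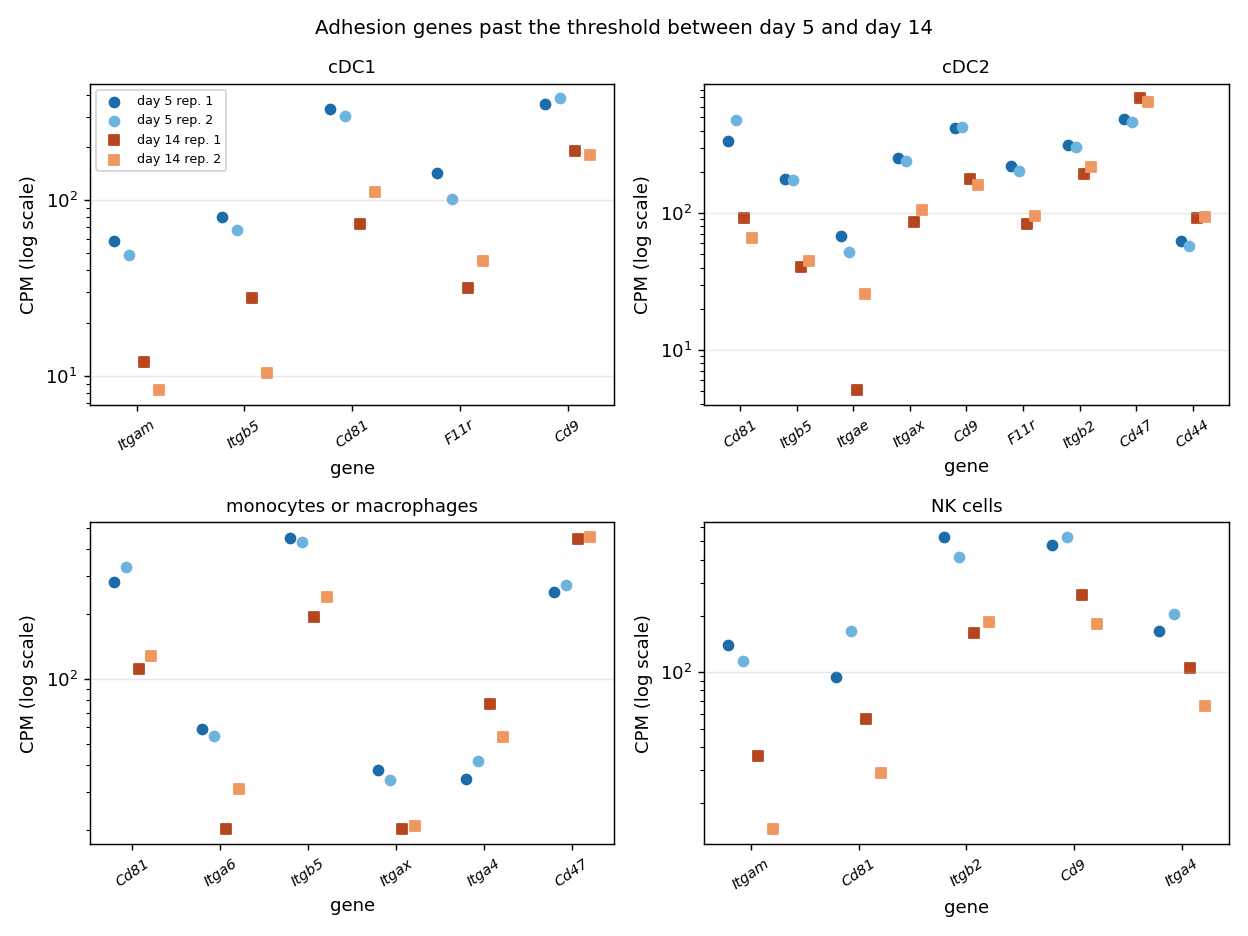
CPM (log axes) per library of the 25 gene and class combinations past the threshold between the days, ordered within each class by the size and sign of the change. Circles are day 5 and squares day 14 libraries, and the days do not overlap in any of the 25. Cd47 lies higher on day 14 in cDC2 and in monocytes or macrophages, and Cd81 lower in all 4 classes.

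The change of Itga4 differed between monocytes or macrophages and NK cells, by 1.81 ± 0.30 on the log2 scale (adjusted p = 1.16e-04, edgeR, class by day term with the library as a block, 226 of 8451 genes past the threshold). The 2 classes were picked because Itga4 had passed the threshold in both, in opposite directions. The difference and its p-value are thus not independent of those calls. The change of Itga4 within each class held less well under the alternatives, as given further below. The plot of integrin chains by library sets the 2 classes side by side.

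**Figure D5:**
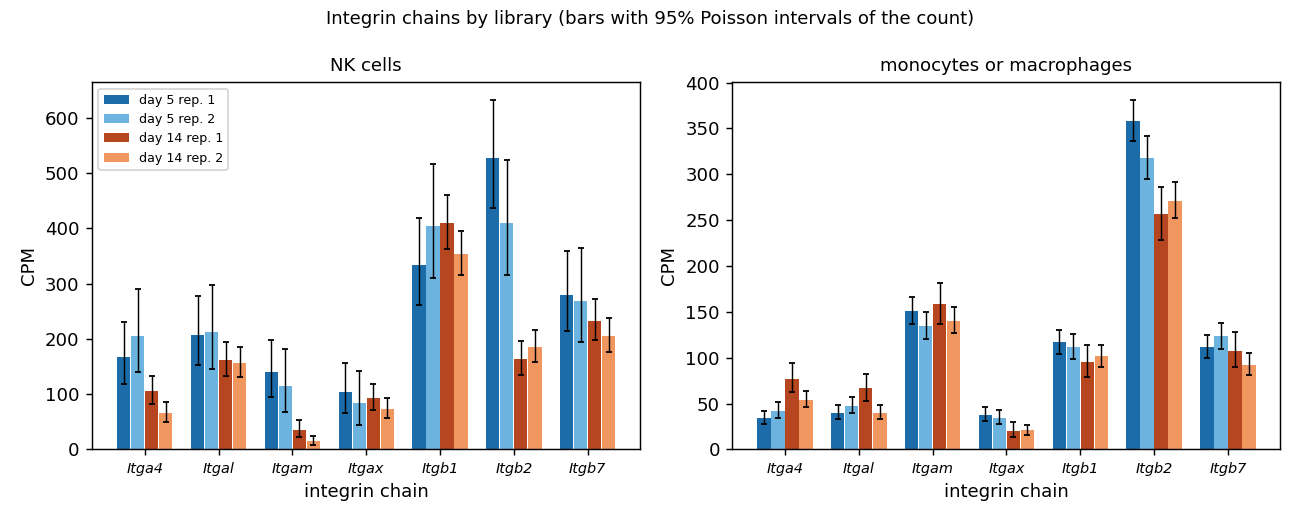
CPM of 7 integrin chains per library in NK cells (left) and monocytes or macrophages (right), with 95% Poisson intervals of the UMI count that cover counting error only. Itgam and Itgb2 are lower on day 14 in NK cells, Itgam is level in monocytes or macrophages, and Itga4 moves in opposite directions in the 2 classes.

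In the other 6 classes edgeR called 0 adhesion genes, and DESeq2 also called 0 in each. Other settings did call some. With mixed cells kept 9 of 18 passed in B cells, 8 of 24 in T cells, 2 of 22 in microglia, 2 of 13 in neutrophils and 1 of 14 in migratory dendritic cells. With classes from clustering 5 of 12 passed in neutrophils, 2 of 17 in microglia and 1 of 17 in T cells. In neutrophils with no UMI of the microglial gate genes 1 of 10 passed, higher on day 14. Cd81 in neutrophils passed in 5 of the alternatives, with changes from -1.38 to -0.88 among them. In microglia, 0 of 18 genes tested passed and 4 had an unadjusted p under 0.05, beside 3.05% of the 7503 genes tested, with Cd47 nearest at 0.53 ± 0.19 (adjusted p = 0.153) and 117 and 148 CPM at day 5, then 165 and 198 at day 14. Microglia numbered 604 and 1121 cells at day 5, then 144 and 62 at day 14. In neutrophils 0 of 12 passed and 4 had an unadjusted p under 0.05, beside 12.1% of the 2652 genes tested, with Cd81 nearest at -0.85 ± 0.30 (adjusted p = 0.111). For migratory dendritic cells the numbers were 0 of 14 and 5, beside 2.4% of the 2706 genes tested, with Itgb5 nearest at -1.63 ± 0.43 (adjusted p = 0.0607) and 113 and 89.5 CPM at day 5, then 22.5 and 38.2 at day 14. For plasmacytoid dendritic cells they were 0 of 13 and 2, beside 1.15% of the 2431 genes tested, with Itgal nearest at -1.17 ± 0.37 (adjusted p = 0.289). T cells had 0 of 16 and 3, beside 0.937% of the 5334 genes tested, with Cd81 nearest at -0.79 ± 0.28 (adjusted p = 0.272). B cells had 0 of 9 and 4, beside 0.75% of the 2133 genes tested, with Cd81 nearest at -0.75 ± 0.24 (adjusted p = 0.190). T cells numbered 44 and 45 cells at day 5, then 498 and 284 at day 14, and B cells 54 and 71 cells at day 5, then 209 and 82 at day 14. The median change of the adhesion genes tested was -0.40 in cDC1, -0.11 in cDC2, -0.26 in NK cells and 0.01 in monocytes or macrophages. Beside these were medians of 0.00743, 0.00440, 0.00314 and -0.00607 over all genes tested. In the 6 classes with no call it was -0.36 in B cells, -0.33 in plasmacytoid and -0.25 in migratory dendritic cells. It was -0.04 in microglia, 0.02 in T cells and 0.06 in neutrophils. Over all genes the medians of these 6, in the same order, were -0.0409, 0.00626, -0.0144, -0.0145, 0.0303 and -0.0226. Itgad, Itgb3 and Itgb8 were too low to be tested in any class.

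A list of 63 other adhesion genes, of which 62 were in the tables, was read beside them: other integrin chains, the linkage that activates integrins, selectins and the enzymes that build their ligands, other adhesion molecules and tetraspanins, and ligands. Each count is followed by the share of all genes tested that passed. In cDC2 5 of 38 tested were higher on day 14 and 5 lower (8.3%), among them, at 50 CPM or more, the tetraspanin Cd63 (-1.92 ± 0.20, adjusted p = 8.61e-05) and Ninj1 (-1.27 ± 0.24, adjusted p = 0.00670). Cd63 was 432 and 432 CPM at day 5 and then 75.9 and 138 CPM at day 14 in that class. In cDC1 1 of 28 was higher and 4 were lower (4.64%), led by Cd63 (-1.85 ± 0.27, adjusted p = 4.89e-05), the talin recruiter Apbb1ip (-1.11 ± 0.27, adjusted p = 0.0143) and osteopontin Spp1 (-1.02 ± 0.19, adjusted p = 9.81e-04). In monocytes or macrophages 6 of 39 were higher and 0 lower (10.4%), among them Spp1 (1.79 ± 0.28, adjusted p = 0.00191) and thrombospondin Thbs1 (0.94 ± 0.15, adjusted p = 0.00191, a gene of the gate). In NK cells 3 of 31 were higher and 3 lower (5.23%), led by Jaml (2.36 ± 0.52, adjusted p = 0.00981), the Rap1 activator Rasgrp2 (-1.84 ± 0.41, adjusted p = 0.0114) and Emb (1.74 ± 0.20, adjusted p = 4.10e-05). Jaml was 9.03 and 19.3 CPM at day 5 and then 68.1 and 58.1 CPM at day 14 and Rasgrp2 108 and 70.6 CPM at day 5, then 32.6 and 15.6 at day 14 in NK cells, with no overlap of the days. Microglia had 1 higher and 1 lower of 34 (3.05%), Spp1 (1.20 ± 0.25, adjusted p = 0.00335) and galectin 3 Lgals3 (-0.67 ± 0.18, adjusted p = 0.0305), and neutrophils Thbs1 (1.23 ± 0.23, adjusted p = 0.0198) and Mmp9 (-1.57 ± 0.24, adjusted p = 0.00970, also a gate gene) of 32 (12.1%). Migratory and plasmacytoid dendritic cells, T cells and B cells had 0 of 23, 24, 32 and 17 (2.4%, 1.15%, 0.937% and 0.75%). Between classes, 9 of 42 were higher and 18 lower in microglia than in monocytes or macrophages (36.9%), 2 of 38 higher and 22 lower in cDC1 than in cDC2 (24.7%), and 5 of 35 higher and 8 lower in NK cells than in T cells (14.8%). In microglia the junctional gene Jam2 (4.57 ± 0.25, adjusted p = 6.82e-11) and talin 2 Tln2 (4.90 ± 0.38, adjusted p = 5.77e-09) were higher.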

How the data were processed

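Single-cell libraries of sorted CD45high cells were read from the matrices of UMI counts that the authors deposited, 1 per library, with whole-number counts per gene and barcode. The tools named in the submitters' processing notes are Seurat 2.3.4 and Cell Ranger 3.0.1, with mouse build GRCm38. The headers of the day 5 matrices name software version 3.0.1 and those of day 14 name none, so any difference in processing runs with the day. Cells with fewer than 200 genes or over 10% mitochondrial UMIs were left out. Classes came from per-cell UMI counts of marker genes, with limits chosen after marker levels were seen. Cells with markers of classes that exclude each other, and lymphocytes over the limit on phagocyte genes, were dropped as possible doublets. No doublet caller was run. Of the gated cells also placed by clustering, 88.7% fell in the same class. By cluster the share was lower in places, such as 43.3% in a cluster named cDC2. It was 22.8% and 4% in the clusters named border-associated macrophages. On day 5 cDC2 numbered 410 and 417 cells by clustering, against 234 and 235 by the gates. The 29 genes, the marker lists and the list of other adhesion genes were chosen with earlier results of these data known.

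Counts were summed per library and class. CPM values and 95% Poisson intervals cover counting error only, since a UMI is not an independent biological sample. Sums were tested with edgeR 4.0.16 in R 4.3.3 (TMM, filterByExpr, quasi-likelihood test, two-sided, Benjamini-Hochberg adjustment over all genes tested, threshold 0.05), with day as the single term, or with the library as a block for pairs of classes. The scripts were tested on simulated data. Single cells were thinned to 1000 UMIs for shares of cells. Named were all genes of the 29 past the threshold between days, the nearest one not past it, up to 10 per pair of classes, and the leading class of each gene; of the other adhesion genes, the 3 with the largest change in a class at 50 CPM or more, of which 1 gene is not reported here. Alternatives were RLE size factors, DESeq2 1.42.0, no filter, the replicate number as a block, each library left out, mixed cells kept, classes from clustering without the 29 genes (scanpy 1.11.5), cells with UMIs of microglial gate genes left out, and limits of 20 and 100 CPM. The crossed block, the difference between classes with its alternatives and the level beyond the microglial ratio were chosen after seeing the data. Promoters and gene names came from RefSeq tables, and gene coordinates from the GENCODE M21 annotation of GRCm38.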

Additional observations from a re-analysis of the deposited data

Results flagged for a closer look

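Itga4, the alpha chain of VLA-4, moved in opposite directions between the days in 2 classes, which led to a test of the difference itself. Its change from day 5 to day 14 in monocytes or macrophages exceeded that in NK cells by 1.81 on the log2 scale (SE 0.30, adjusted p = 1.16e-04, edgeR, 4 libraries). Both day 14 libraries were above both day 5 libraries in monocytes or macrophages and below both in NK cells. The pair of classes was picked because the gene had passed the threshold in both, so the difference is not independent of those calls. The difference ranged from 1.71 to 1.91 without 1 library and was 1.35 with mixed cells kept, 1.56 with classes from clustering and 1.49 in cells with no UMI of the microglial gate genes, with adjusted p from 3.17e-05 to 0.0132. DESeq2 gave 1.89 with no adjusted p. The change within each class held less well: it missed the threshold in 4 of 12 alternatives in monocytes or macrophages and in 7 of 11 in NK cells.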

How the results depend on the processing

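Of the 25 changes between days, 9 passed under every alternative that could be run (Cd47 in monocytes or macrophages, Cd81, Cd9, F11r, Itgax and Itgb5 in cDC2, and Cd9, Itgam and Itgb2 in NK cells), and none of the 25 reversed. Over the 10 classes the 25 became 14 with DESeq2 and 47 with mixed cells kept. Enough cells free of microglial gate UMIs were left in monocytes or macrophages, neutrophils, cDC2, NK cells, T cells and B cells. In those classes 20 calls became 11 when only such cells were used. Of the 20, 10 still passed, and 1 gene without a call in the main setting passed in neutrophils, higher on day 14. That alternative was not run for cDC1, migratory and plasmacytoid dendritic cells, which had as few as 6, 13 and 14 such cells in a library. Nor was it run for microglia, whose gate requires these UMIs. Chain pairs went from 20 to 37 at 20 CPM and 6 at 100 CPM. Precision is limited by 2 libraries a day and by the day 5 lymphocytes and day 14 microglia, whose cells were few.

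Counts over all genes moved as follows; the cause was not tested. With DESeq2 they went from 16 to 86 in B cells, 269 to 151 in NK cells, 50 to 33 in T cells, 197 to 73 in cDC1, 604 to 254 in cDC2, 229 to 102 in microglia, 65 to 26 in migratory dendritic cells, 931 to 495 in monocytes or macrophages, 322 to 203 in neutrophils and 28 to 14 in plasmacytoid dendritic cells, 894 to 370 for NK against T cells and 1760 to 959 for cDC1 against cDC2. Without a filter they were 209 in B cells, 153 in T cells, 920 in cDC2, 152 in migratory dendritic cells, 583 in neutrophils and 75 in plasmacytoid dendritic cells. With classes from clustering they were 80 in T cells, 93 in cDC1, 1070 in cDC2, 26 in migratory dendritic cells and 626 in neutrophils. With mixed cells kept they were 514 in B cells and 804 in T cells, and with RLE size factors 31 in B cells. Without cells that had microglial gate UMIs they were 67 in B cells, 280 in cDC2, 279 in monocytes or macrophages and 134 in neutrophils. Without 1 library they ranged from 0 to 101 in B cells, 166 to 293 in NK cells, 48 to 77 in T cells, 126 to 186 in cDC1, 143 to 234 in microglia, 65 to 110 in migratory dendritic cells, 30 to 520 in neutrophils and 44 to 121 in plasmacytoid dendritic cells, 311 to 1006 for NK against T cells and 1119 to 1531 for cDC1 against cDC2.

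The replicate numbers did not pair the libraries, with correlations of same-numbered deviations from -0.249 in B cells to 0.00993 in cDC1. With the replicate block 41 genes passed in B cells, 175 in NK cells, 29 in migratory and 49 in plasmacytoid dendritic cells, and 21 of the 25 named changes still passed, the exceptions being Cd44 in cDC2, Itgax in monocytes or macrophages, and Cd81 and Itga4 in NK cells. The crossed replicate block gave 46 genes in B cells and 1319 in monocytes or macrophages.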
